A study of Mus musculus with 15 samples.

Results

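Mouse embryonic stem (ES) cells with depleted Cbx7 were compared with control ES cells. The 7 arrays of ES cells in the study, of 15 in all, were chosen by their titles: 4 of the knockdown labelled KD33 and 3 of the control. The other 8 arrays held embryoid bodies named EB9, aggregates in which ES cells differentiate, 4 of the knockdown and 4 of the control. The labels give the treatment of the knockdown samples as Cbx7 depleted KD33 and that of the control samples as none, and name neither the ES cell line nor the delivery of the knockdown. A single knockdown, KD33, was used in every knockdown sample, so effects of lowering Cbx7 and effects of that reagent or of the cells that carry it cannot be told apart. Total RNA was labelled with Cy3 and each sample was hybridised alone to a 1-colour Agilent array.

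Cbx7 is a chromodomain protein. It reads trimethylated lysine 27 of histone H3, the mark laid down by Polycomb repressive complex 2, and brings canonical Polycomb repressive complex 1 to the marked chromatin, where that complex compacts nucleosomes and ubiquitinates histone H2A. In ES cells Cbx7 is the main chromodomain subunit of that complex, and the genes it occupies are mostly developmental regulators with promoters rich in the dinucleotide CG. As ES cells differentiate, Cbx7 gives way to other members of the Cbx family.

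The level of a gene is given throughout as log2 of the processed signal of its probe minus the 75th percentile of that array, so that 0 is a bright probe and −8 lies close to background. A change is the mean level of the knockdown arrays minus that of the control arrays, on the same log2 scale, and its SE and adjusted p come from limma. Changes were called at an adjusted p under 0.05. On the ES arrays between 63.4% and 69.0% of the features were well above background, no feature was saturated, and the 75th percentile of the signal ran from 1483 to 2193. Knockdown arrays 1 to 4 lay on slides 1 to 4 and control arrays 2, 3 and 4 on slides 1, 2 and 3. Arrays of the same slide deviated together from their group means, with correlations across genes of 0.63, 0.48 and 0.46. Pairs of different slides ran from −0.59 to 0.49, with knockdown array 4 and control array 2 at 0.49 and knockdown array 2 and control array 4 at 0.40. The ES controls lay at position 3 of slides 1, 2 and 3 and the ES knockdowns at position 4 of slides 1 to 4, so position on the slide and group cannot be told apart. Slide 4 held no ES control. The labels call the samples biological replicates without naming cultures. The p-values measure the spread between samples within groups, estimated over all 15 arrays, EB9 among them. A gene that varied in EB9 can thus fail the test in ES cells.

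The array carried a pair of Cbx7 probes. Probe A_55_P1980401, at chr15:79746240-79746299 of mm9, read −6.30, −3.14 and −3.04 on control arrays 2, 3 and 4 and −7.85, −4.44, −4.61 and −7.37 on knockdown arrays 1 to 4. The groups overlapped, because the arrays of slides 1 and 4 read lower than those of slides 2 and 3 in both groups, and knockdown arrays 1 and 4 were not well above background. The change was −1.91 (SE 1.23, adjusted p = 0.256). Within slides 1, 2 and 3 it was −1.56, −1.30 and −1.57, and with the slide as a block −1.41 (SE 0.17, adjusted p = 1.00e-04). Probe A_55_P1980408, at chr15:79748605-79748664, did not pass the test (−0.13, SE 0.23, adjusted p = 0.733). Of 19 ES cell markers tested, 3 were called higher and 5 lower, and all 19 were well above background on every ES array. Without knockdown array 4 or control array 3 only 1 was higher, and on the authors' values 8 were lower. Pou5f1, the transcription factor that defines the pluripotent state, read 3.86, 3.82 and 3.92 on control arrays 2, 3 and 4 and 4.10, 4.30, 4.24 and 4.35 on knockdown arrays 1 to 4. It was higher (log2 change 0.38, SE 0.12, adjusted p = 0.0246), a call kept in 3 of the 7 fits that left out 1 array.

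The sequences below are the promoter windows on which the later results turn, from RefSeq on GRCm38.p6: 250 bases before and 50 bases after each annotated start, written along the strand of the gene. The first set contrasts the CG content of 1 promoter whose gene rose with 3 whose genes fell, with every CG in capitals. Dio3 (chr12:110278980-110279279, plus strand) holds 25 CG, Magea4 (chrX:72221767-72222066, plus strand) 2, Mbl2 (chr19:30232678-30232977, plus strand) 3 and Xlr4b (chrX:73214083-73214382, plus strand) 8.
Dio3: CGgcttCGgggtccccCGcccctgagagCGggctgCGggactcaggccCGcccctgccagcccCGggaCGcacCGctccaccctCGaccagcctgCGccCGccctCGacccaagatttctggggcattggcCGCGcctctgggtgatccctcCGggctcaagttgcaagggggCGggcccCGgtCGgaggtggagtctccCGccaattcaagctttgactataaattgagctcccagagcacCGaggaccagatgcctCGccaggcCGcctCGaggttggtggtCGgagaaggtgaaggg
Magea4: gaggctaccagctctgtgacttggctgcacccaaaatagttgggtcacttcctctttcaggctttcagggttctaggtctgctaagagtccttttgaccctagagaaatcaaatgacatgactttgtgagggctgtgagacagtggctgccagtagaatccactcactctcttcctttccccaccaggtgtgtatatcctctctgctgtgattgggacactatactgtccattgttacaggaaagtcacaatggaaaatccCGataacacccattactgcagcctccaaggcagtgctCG
Mbl2: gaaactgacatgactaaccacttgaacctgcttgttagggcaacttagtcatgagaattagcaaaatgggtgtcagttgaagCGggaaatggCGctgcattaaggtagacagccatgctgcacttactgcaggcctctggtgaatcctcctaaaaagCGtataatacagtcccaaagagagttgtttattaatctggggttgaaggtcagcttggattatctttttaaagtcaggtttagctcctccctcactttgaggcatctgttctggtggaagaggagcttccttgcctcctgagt
Xlr4b: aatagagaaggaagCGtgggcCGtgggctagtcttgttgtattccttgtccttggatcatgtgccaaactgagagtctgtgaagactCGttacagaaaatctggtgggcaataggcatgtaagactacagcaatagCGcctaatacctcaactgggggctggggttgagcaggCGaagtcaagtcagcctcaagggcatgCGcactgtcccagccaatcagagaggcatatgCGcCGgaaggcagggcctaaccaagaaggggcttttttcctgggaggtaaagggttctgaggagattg

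The second set shows the 3 cholesterol genes with the largest rises, with the letters CCAAT, read on either strand, in capitals. This is the box bound by NF-Y, a factor that acts beside the sterol-sensing factor Srebf2. Hmgcs1 (chr13:119690101-119690400, plus strand) holds 4 such boxes, Srebf2 (chr15:82147019-82147318, plus strand) 1 and Insig1 (chr5:28071162-28071461, plus strand) 1.
Hmgcs1: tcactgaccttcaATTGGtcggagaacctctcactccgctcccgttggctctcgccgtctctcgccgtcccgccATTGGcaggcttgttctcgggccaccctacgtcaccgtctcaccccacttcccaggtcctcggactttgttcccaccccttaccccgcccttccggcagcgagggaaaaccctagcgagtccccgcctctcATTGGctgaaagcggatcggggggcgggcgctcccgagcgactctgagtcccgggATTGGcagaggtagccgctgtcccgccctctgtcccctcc
Srebf2: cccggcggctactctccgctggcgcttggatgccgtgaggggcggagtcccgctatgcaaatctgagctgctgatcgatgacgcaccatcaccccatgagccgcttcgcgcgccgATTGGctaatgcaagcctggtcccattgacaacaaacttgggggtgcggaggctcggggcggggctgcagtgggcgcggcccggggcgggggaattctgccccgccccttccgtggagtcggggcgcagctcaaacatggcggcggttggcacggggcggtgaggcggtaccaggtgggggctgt
Insig1: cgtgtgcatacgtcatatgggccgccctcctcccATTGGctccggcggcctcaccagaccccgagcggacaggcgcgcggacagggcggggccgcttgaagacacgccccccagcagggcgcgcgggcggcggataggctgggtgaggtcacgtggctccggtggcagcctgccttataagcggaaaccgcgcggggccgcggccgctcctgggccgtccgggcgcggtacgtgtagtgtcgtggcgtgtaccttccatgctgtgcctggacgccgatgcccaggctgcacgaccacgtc

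The third set shows 2 genes of the amino acid starvation response that fell, with the letters TGATGNAA, the core of the amino acid response element bound by Atf4, in capitals on either strand. Slc7a11 (chr3:50443564-50443863, minus strand) holds 2 matches and Pycr1 (chr11:120643699-120643998, minus strand) 1.
Slc7a11: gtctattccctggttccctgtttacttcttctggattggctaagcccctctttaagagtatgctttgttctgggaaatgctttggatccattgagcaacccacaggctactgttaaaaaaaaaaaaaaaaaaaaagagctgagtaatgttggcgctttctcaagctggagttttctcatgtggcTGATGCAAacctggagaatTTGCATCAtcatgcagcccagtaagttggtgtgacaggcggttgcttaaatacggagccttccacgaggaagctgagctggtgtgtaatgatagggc
Pycr1: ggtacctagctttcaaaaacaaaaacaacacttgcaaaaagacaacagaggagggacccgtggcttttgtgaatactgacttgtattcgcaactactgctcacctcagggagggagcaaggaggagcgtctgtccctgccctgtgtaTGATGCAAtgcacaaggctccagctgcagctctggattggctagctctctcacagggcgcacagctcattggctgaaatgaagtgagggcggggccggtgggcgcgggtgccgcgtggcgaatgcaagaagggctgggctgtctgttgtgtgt

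Of 21178 genes tested, 4651 were higher in the knockdown (22%) and 3492 lower (16.5%), together 38.5%, with a median change over all genes of 0.04. Most changes were small: 373 genes were called and at least 2-fold higher (1.76%) and 667 at least 2-fold lower (3.15%). A share of members called has to be read against these figures. ES groups did not overlap, in either direction, for 49.6% of the genes tested, so a pair of groups apart is common on these arrays. Under the authors' own scale, which compresses low signals, the 2-fold counts were 85 and 254. Genes named below for a list are the largest called rises and falls of that list, and members named beyond 3 in each direction were chosen after their values were seen.

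**Figure D1:**
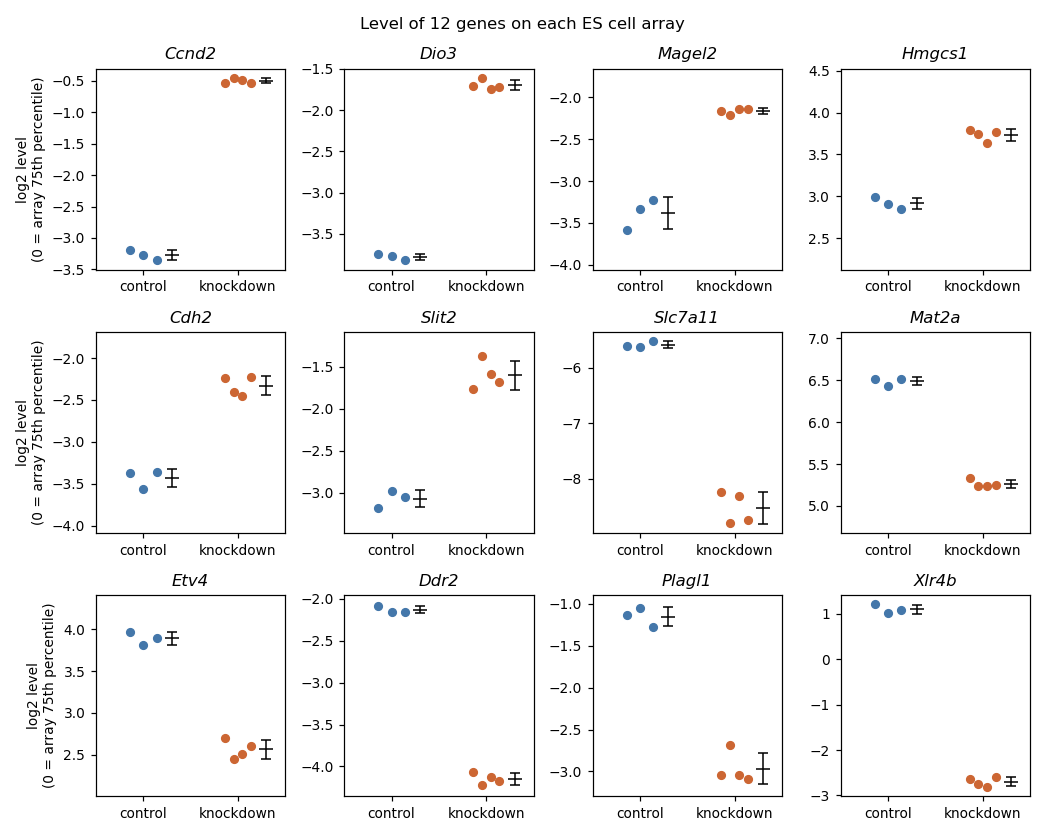
Level of 12 genes on each ES array, on the log2 scale given above. Points are arrays (3 control, 4 knockdown) and the bar beside each group is its mean with the SD. In every panel the control and knockdown arrays do not overlap. The 4 knockdown arrays of Ccnd2 lie near −0.5 and its 3 controls below −3.

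Genes well above background on every ES array were ranked, with clone and predicted names passed over and groups that do not overlap required. The lack of overlap in the genes ranked here was thus part of their choice. The largest rise among them was that of Ccnd2, which encodes cyclin D2, a partner of the kinases that drive cells out of G1. Ccnd2 read −3.20, −3.28 and −3.36 on control arrays 2, 3 and 4 and −0.53, −0.45, −0.49 and −0.53 on knockdown arrays 1 to 4. All knockdown arrays lay above all controls, by a change of 2.78 (SE 0.07, adjusted p = 2.68e-10), or 6.86-fold. Dio3, the deiodinase that inactivates thyroid hormone, read −3.75, −3.77 and −3.82 on control arrays 2, 3 and 4 and −1.71, −1.61, −1.74 and −1.72 on knockdown arrays 1 to 4. Its groups did not overlap either (log2 change 2.09, SE 0.10, adjusted p = 2.77e-08). Mbd5, a member of the methyl-CpG-binding domain family, rose (log2 change 1.86, SE 0.11, adjusted p = 8.38e-08). Isl2, a LIM homeodomain factor of motor neurons, rose (log2 change 1.79, SE 0.17, adjusted p = 5.47e-06), as did Dach1, a transcriptional cofactor of eye and limb development (log2 change 1.57, SE 0.14, adjusted p = 3.2e-06). Insm1, a zinc finger factor of neuroendocrine cells, rose by 1.53 and Sox3, an HMG-box factor of neural progenitors, by 1.53. Among the other large rises were the matrix gene Col8a2 (1.59), Tnrc6c, a scaffold of the microRNA silencing complex (1.59), Plpp7 (1.55), Tcp10a (1.63) and Frg2f8 (1.60).

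By the same rule, the 12 largest falls were larger than the rises. They lay mostly in families of near-identical copies, whose members a probe may not separate. Xlr5a, Xlr5b, Xlr5c, Xlr4a, Xlr4b and Xlr3b belong to the X-linked lymphocyte-regulated family, a set of duplicated genes on the X chromosome that includes germ line and imprinted members. Xlr4b read 1.21, 1.01 and 1.08 on control arrays 2, 3 and 4 and −2.65, −2.75, −2.81 and −2.59 on knockdown arrays 1 to 4. Every knockdown array lay over 3 log2 units below every control, and the change was −3.80 (SE 0.31, adjusted p = 1.48e-06). The other Xlr members and DXBay18 fell by −3.31 to −4.13 on the same scale. Pramel14 and Pramel30, of a family expressed in early embryos and germ cells, fell (−3.06, adjusted p = 5.37e-05 and −2.99, adjusted p = 9.99e-09). Outside such families, Efhc2, an EF-hand protein gene on the X chromosome, fell (−3.27, adjusted p = 1.15e-06), as did Slamf9, an immune cell receptor gene (−3.14, adjusted p = 7.22e-06), and the olfactory receptor gene Olfr1466 (−4.55, adjusted p = 1.72e-05).

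A stricter view takes genes well above background on every array of one ES group and on none of the other. There were 36 such genes in the knockdown (0.17%) and 199 in the control (0.94%). The rule asks for 4 arrays in the knockdown and 3 in the control, so these counts are not like for like. With at least 3 arrays asked of either group, 79 genes were seen in the knockdown alone and 199 in the control alone. The lowest signal well above background ran from −6.90 to −6.44 on the knockdown arrays and from −6.92 to −6.75 on the controls. Alcam, an immunoglobulin-domain adhesion molecule, read −7.04, −7.39 and −6.92 on control arrays 2, 3 and 4 and −5.14, −5.40, −5.11 and −4.92 on knockdown arrays 1 to 4. It was at least 3.24-fold higher in the knockdown, where the fold is the mean of the knockdown arrays over the detection limit of the control arrays, the dimmest signal that passed as well above background (adjusted p = 1.09e-05). By the same measure Smim27 was at least 3.78-fold higher, Fam90a1b 3.08-fold, Mblac2 2.91-fold and Olig2, a basic helix-loop-helix factor of motor neurons and oligodendrocytes, 2.90-fold (adjusted p = 0.0041). In the other direction Magea4, a gene silent outside the germ line and tumours, read −3.49, −3.69 and −3.72 on control arrays 2, 3 and 4 and −6.61, −6.53, −7.01 and −6.77 on knockdown arrays 1 to 4. It was at least 7.87-fold lower in the knockdown (adjusted p = 2.44e-08), and so were Mbl2, a lectin of the complement pathway (at least 7.52-fold), Dnajc5g (6.03-fold), Reg1 (5.75-fold) and the phosphatase gene Ptpn22 (3.98-fold).

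Of the 36 genes seen in the knockdown ES cells and not in the control, 16 were well above background on all 4 arrays of control EB9, or 44.4%. Over all 882 genes that were not above background on any ES control array, the share was 66.3%. Probes were kept if well above background on at least 3 arrays of a group. Of the 882 genes, 79 met this on the knockdown ES arrays, and the others were kept through EB9. The 66.3% was thus set largely by that filter and is no reference for the 44.4%. Twist2, a mesenchymal basic helix-loop-helix factor, is one that control EB9 expressed, at 1.55 ± 0.13 (SD, n = 4), and it was at least 2.04-fold higher in knockdown than in control ES cells (adjusted p = 3.21e-07). Chosen after its values were seen, Fgf5, a marker of the primed epiblast, was at least 1.91-fold higher in the knockdown (adjusted p = 0.000689) and reached −2.35 ± 0.37 in control EB9. Fam90a1b and Olig2 were above background on no control EB9 array. The effect of the knockdown differed between ES cells and EB9 for 29.7% of all genes tested (interaction term, limma), and Ccnd2 and Dio3 were among them: in EB9 their changes were −0.33 and 0.03.

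Promoters of genes at least 2-fold lower held few CG. A RefSeq promoter window was at hand for 62.7% of the genes tested, under the 80% that a comparison over all members would need, so the figures describe those genes alone. Among them 64.3% of windows held at least 15 CG, with a median of 20. Of the genes at least 2-fold higher, 63.8% did, with a median of 18. Of the genes at least 2-fold lower, 24.2% did, with a median of 7, and the windows of Magea4, Mbl2 and Xlr4b above are examples. The contrast lay in the large changes: over all genes called lower, whatever the size, the share was 64.4%, and over all called higher 75.7%.

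**Figure D2:**
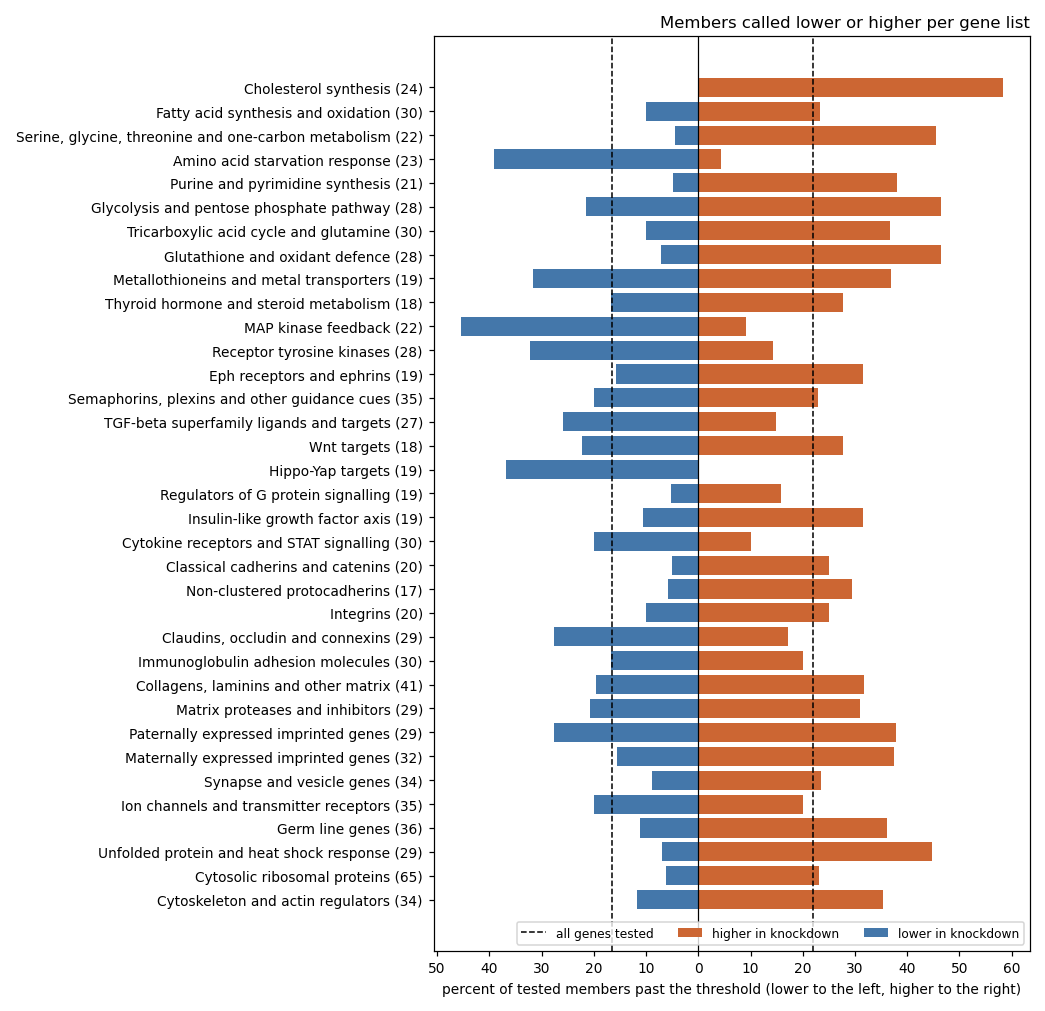
Percent of the tested members of each gene list called higher (right) or lower (left) in knockdown ES cells, with the number tested in brackets. Dashed lines mark the shares over all genes tested, 22% higher and 16.5% lower. Cholesterol synthesis has the longest bar to the right, at 58.3%, and MAP kinase feedback the longest to the left, at 45.5%.

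Metabolism came first. The cholesterol pathway builds sterols from acetyl-CoA by way of mevalonate, and its genes are switched on together by Srebf2 when membrane sterol is low. All 24 genes listed were tested and were well above background on every ES array. In the knockdown 14 of them were higher (58.3%, against 22% of all genes) and 0 lower by limma, with 0.33 as the median change, and at an unadjusted p under 0.05 the counts were 16 and 0. Hmgcs1, which makes the first committed intermediate, read 2.99, 2.91 and 2.85 on control arrays 2, 3 and 4 and 3.79, 3.74, 3.63 and 3.77 on knockdown arrays 1 to 4. The groups did not overlap (log2 change 0.82, SE 0.09, adjusted p = 1.41e-05). Srebf2 itself rose (log2 change 0.75, SE 0.09, adjusted p = 2.19e-05), as did Insig1, which holds the Srebf2 protein back in the endoplasmic reticulum (log2 change 0.72, SE 0.17, adjusted p = 0.00398). Fdft1, the squalene synthase, rose by 0.72 and the isomerase Idi1 by 0.55. The middle and late enzymes Sqle (0.15, adjusted p = 0.141) and Cyp51 (0.04, adjusted p = 0.726) did not pass the test. Sqle passed with the slide as a block (0.16, adjusted p = 0.045). With the median instead of the 75th percentile for scaling 8 members were called higher, and with quantiles 1 was lower.

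All 16 members with a RefSeq promoter window held a CCAAT box, against 42.4% of 13282 windows, and 8 of those 16 were called higher. The letters CACCCCAC, a sterol element, were found on either strand in 1 of the 16, Hmgcs1 (6.25%, against 3.94% of all windows). The letters CACGTG, an E-box, were in 4 (25%, against 10.9%). None of the motifs searched contains another, and the CCAAT box was as common in members that did not pass the test.

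The amino acid starvation response is the set of genes that Atf4 switches on when uncharged transfer RNA accumulates. It moved the other way: 9 of 23 members were lower (39.1%, against 16.5% of all genes) and 1 higher, with a median change of −0.24. Slc7a11, the cystine importer that feeds glutathione synthesis, read −5.61, −5.63 and −5.52 on control arrays 2, 3 and 4 and −8.24, −8.79, −8.30 and −8.74 on knockdown arrays 1 to 4. It was well above background on all 3 control arrays and on no knockdown array, and was at least 2.03-fold lower (adjusted p = 2.96e-05). Stc2, a secreted glycoprotein induced by stress, read −1.05, −1.18 and −1.18 on control arrays 2, 3 and 4 and −2.17, −2.15, −2.20 and −2.16 on knockdown arrays 1 to 4. The groups did not overlap (log2 change −1.03, SE 0.07, adjusted p = 3.38e-07). Pycr1, a proline synthesis enzyme, fell (log2 change −0.51, SE 0.10, adjusted p = 0.00101), and smaller falls were those of Atf5 (−0.49), the glutamine carrier Slc38a2 (−0.47) and Ddit4 (−0.41). Atf4 (−0.12, adjusted p = 0.329) and asparagine synthetase Asns (−0.09, adjusted p = 0.458) did not pass the test, and the one member called higher was Ddit3 (0.54), a factor also induced by unfolded proteins. The element TGATGNAA was found in 8 of 21 promoter windows of the list (38.1%, against 2.96% of all windows). A high share follows from a list of genes that Atf4 switches on, and is no result of these arrays. Of those 8 genes 3 were called lower, beside 9 of 23 in the whole list.

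**Figure D3:**
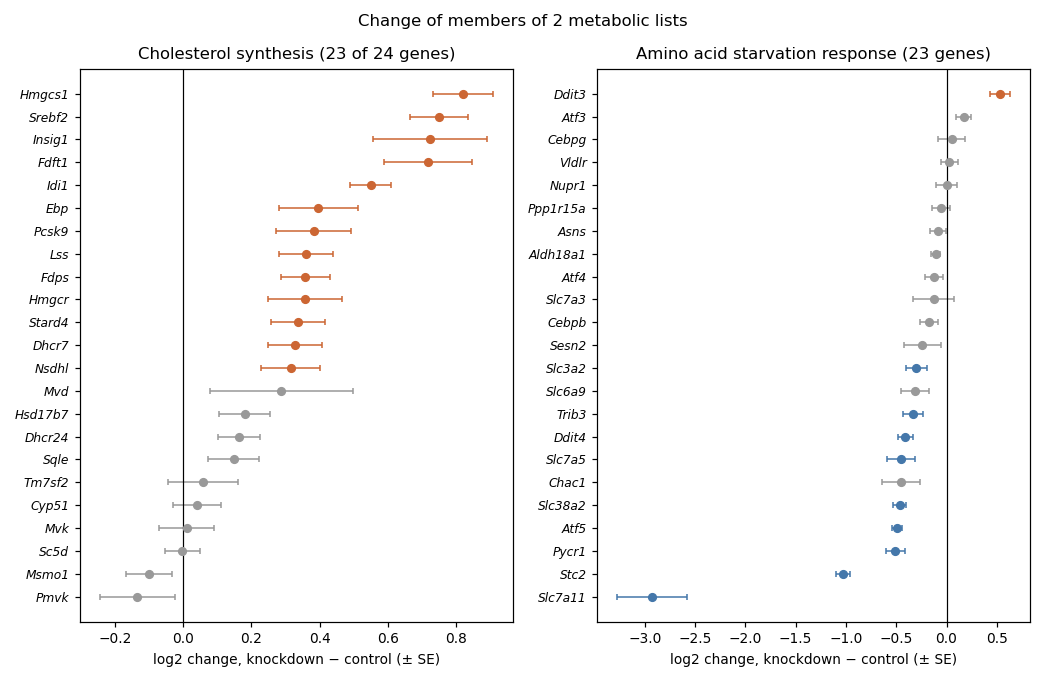
Change of 23 of the 24 members of the cholesterol synthesis list and of the 23 members of the amino acid starvation list in ES cells, with the SE as bars. Orange points were called higher, blue lower and grey not called. Hmgcs1 tops the first panel at 0.82, and Slc7a11 is drawn in the second at its fitted difference of −2.93, of which the size is not measured because no knockdown array was well above background. Stc2, measured on every array, lies at −1.03.

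Serine and glycine feed folate-borne carbon units into nucleotides and methylation. Of 22 genes of that network 10 were higher (45.5%) and 1 lower, with a median of 0.21. The one that fell was Mat2a, which makes S-adenosylmethionine, the methyl donor. Mat2a read 6.52, 6.44 and 6.51 on control arrays 2, 3 and 4 and 5.33, 5.24, 5.23 and 5.25 on knockdown arrays 1 to 4. Knockdown arrays lay at least 1 log2 unit below controls (log2 change −1.23, SE 0.06, adjusted p = 5.35e-08). Rises were those of Amt, of the glycine cleavage system (0.74, adjusted p = 2.02e-05), and of the threonine-degrading enzymes Tdh (0.66, adjusted p = 0.00141) and Gcat (0.51, adjusted p = 0.00399), a route on which mouse ES cells are known to depend. The serine synthesis enzyme Phgdh did not pass (0.08, adjusted p = 0.55). The count of rises was 6 without knockdown array 4, 5 without control array 3 or 4, 5 with the median for scaling and 6 with quantiles or on the authors' values. Falls numbered 2 with quantiles or on the authors' values.

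Of 21 purine and pyrimidine genes 8 were higher (38.1%). These included Gart (0.59, adjusted p = 7.11e-05) and Pfas (0.53, adjusted p = 0.0057), both enzymes of de novo purine synthesis, and Prps1, which makes their ribose donor (0.58, adjusted p = 8.33e-05). The single fall was lost without knockdown array 1 or 4 or control array 3 or 4, and the falls numbered 2 with the slide as a block, 4 with quantiles and 3 on the authors' values.

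Glycolysis and the pentose phosphate shunt had 13 of 28 members higher (46.4%) and 6 lower (21.4%), with a median of 0.24. Ldhb, the lactate dehydrogenase subunit favoured by oxidative cells, read 5.80, 5.74 and 5.72 on control arrays 2, 3 and 4 and 6.94, 6.89, 6.75 and 6.89 on knockdown arrays 1 to 4. It rose in every slide (log2 change 1.12, SE 0.09, adjusted p = 9.77e-07). Its sister subunit Ldha rose by 0.50, the glucose carrier Slc2a3 by 0.62 and the neuronal enolase Eno2 by 0.64. Pfkp, the platelet phosphofructokinase, fell (−0.67, adjusted p = 0.000461) while the liver form Pfkl rose (0.40, adjusted p = 0.00516). In the shunt G6pdx rose by 0.39, and Pgd, the next dehydrogenase, was lower (−0.51, adjusted p = 0.00012). Pdk1, the kinase that shuts pyruvate dehydrogenase, fell (−0.45, adjusted p = 0.000102). The count of rises depended on scaling: it was 6 with the median, 8 with quantiles and 7 on the authors' values. Falls numbered 3 with the median.

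The tricarboxylic acid cycle and glutamine list had 11 of 30 members higher (36.7%) and 3 lower. Idh3a rose (0.56, adjusted p = 0.000134), as did Dlst (0.54, adjusted p = 0.00671) and Sdhb (0.49, adjusted p = 7.38e-05), which all encode subunits of cycle enzymes. Pcx, pyruvate carboxylase, fell (−0.58, adjusted p = 5.63e-06), and so did the cytosolic Idh1 (−0.35, adjusted p = 0.00512). The count of rises was 6 or 7 under the other scalings, and 5 genes were lower on the authors' values. In the glutathione and oxidant list 13 of 28 were higher (46.4%) and 2 lower. Gstt2 (0.99, adjusted p = 2.48e-05) and Gsto1 (0.84, adjusted p = 4.99e-05) are glutathione transferases, Sod2 is the mitochondrial superoxide dismutase (0.81, adjusted p = 4.22e-07) and Nqo1 a quinone reductase (0.73). Nfe2l2, the factor that induces several of them, did not pass (−0.01, adjusted p = 0.92). Gstp1, another transferase, fell (−0.29, adjusted p = 0.00526). The falls numbered 1 without knockdown array 3 or control array 2 or 4, and 0 with the median for scaling. Fatty acid genes were near the background, with 7 of 30 higher (23.3%) and 3 lower (10%). There Fads3, a desaturase family member (0.63, adjusted p = 0.000712), and Acsl4, an acyl-CoA synthetase for arachidonate (0.61, adjusted p = 0.00012), rose, while Fasn, the fatty acid synthase, fell (−0.42, adjusted p = 0.00205). With the slide as a block 13 fatty acid genes were higher and 5 lower (27.3% and 20.1% of all genes tested were), and without knockdown array 3 or 4 or control array 3 or 4 the count of rises was 4. With the median for scaling no fatty acid gene was lower.

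Metal handling showed 7 rises and 6 falls among 19 genes, with a median of 0.02. Mt2, a metallothionein that binds zinc and copper, read 5.31, 5.26 and 5.34 on control arrays 2, 3 and 4 and 3.89, 3.70, 3.71 and 3.86 on knockdown arrays 1 to 4. Its groups did not overlap (log2 change −1.52, SE 0.08, adjusted p = 6.72e-08). Mt1 fell by less (−0.67, adjusted p = 3.76e-05), and the zinc exporter Slc30a1, which responds to the same metal sensor, fell too (−0.70, adjusted p = 2.16e-05). The sensor gene Mtf1 did not pass (−0.58, adjusted p = 0.0549), and it was lower with the slide as a block (−0.53, adjusted p = 1.90e-05). On the iron side the transferrin receptor Tfrc rose (log2 change 0.95, SE 0.09, adjusted p = 7.42e-06), and so did the iron exporter Slc40a1 (0.65, adjusted p = 0.00168), while the importer Slc39a14 fell (−0.72, adjusted p = 2.83e-05). Without control array 4 the rises numbered 4.

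Of 18 genes of thyroid hormone and steroid metabolism 5 were higher, all by over 0.7. Besides Dio3, the progesterone receptor Pgr rose. Pgr read −6.47, −6.32 and −6.59 on control arrays 2, 3 and 4 and −5.03, −4.75, −4.87 and −5.04 on knockdown arrays 1 to 4. It was well above background on all 4 knockdown arrays and on 1 control array (log2 change 1.54, SE 0.15, adjusted p = 6.69e-06). Cyp11a1, the enzyme that starts steroid synthesis from cholesterol, read −2.91, −3.20 and −3.23 on control arrays 2, 3 and 4 and −4.58, −5.06, −5.05 and −4.84 on knockdown arrays 1 to 4 and fell (log2 change −1.77, SE 0.24, adjusted p = 8.23e-05). The falls in this list numbered 3 and dropped to 1 without knockdown array 4 or control array 3 or 4, and Cyp11a1 kept its call under each of these. They also numbered 1 with quantiles or on the authors' values, and 6 with the ES arrays fitted alone.

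Signalling lists moved both ways. Genes induced by MAP kinase that feed back on the pathway had 10 of 22 members lower (45.5%, against 16.5% of all genes) and 2 higher, with a median of −0.28. Etv4, an ETS factor induced by fibroblast growth factor, read 3.96, 3.81 and 3.90 on control arrays 2, 3 and 4 and 2.70, 2.45, 2.51 and 2.60 on knockdown arrays 1 to 4. The groups did not overlap (log2 change −1.33, SE 0.09, adjusted p = 5.25e-07). Etv1, of the same subfamily, fell (log2 change −1.22, SE 0.06, adjusted p = 4.31e-08), and Phlda1, a pleckstrin-domain protein, fell (log2 change −1.25, SE 0.09, adjusted p = 3.61e-07). The phosphatase genes Dusp14 (−0.59), Dusp16 (−0.47), Dusp2 (−0.42) and Dusp6 (−0.30) and the inhibitor Spred1 (−0.52) also fell. Dusp9 rose (0.47, adjusted p = 0.000435), a phosphatase of ES cells encoded on the X chromosome. Etv5 (−0.11, adjusted p = 0.315), Spry2 (−0.13, adjusted p = 0.291) and Spry4 (−1.14, adjusted p = 0.355) did not pass, and Spry4 was lower with the slide as a block (−0.98, adjusted p = 0.00681). The rises numbered 1 without control array 4 and on the authors' values.

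Among 28 receptor tyrosine kinases 9 were lower (32.1%) and 4 higher (14.3%). Ddr2, a collagen receptor, read −2.08, −2.15 and −2.15 on control arrays 2, 3 and 4 and −4.07, −4.23, −4.13 and −4.18 on knockdown arrays 1 to 4. All knockdown arrays lay far below the controls (log2 change −2.02, SE 0.18, adjusted p = 3.87e-06). Ntrk2, the receptor of brain-derived neurotrophic factor, fell (log2 change −1.54, SE 0.32, adjusted p = 0.00215) and Pdgfra, the platelet-derived growth factor receptor of mesoderm and primitive endoderm, fell (log2 change −0.81, SE 0.08, adjusted p = 5.63e-06). Ntrk3, the receptor of neurotrophin 3, rose (0.87, adjusted p = 0.0073) and was well above background on 2 of 3 control arrays. With the median for scaling the falls numbered 5, and without control array 4 or on the authors' values the rises numbered 2.

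Ephrins and their Eph receptors sort cells by contact. Of 19 genes 6 rose (31.6%) and 3 fell (15.8%). Ephb1 read −5.24, −4.84 and −4.77 on control arrays 2, 3 and 4 and −3.65, −3.54, −3.68 and −3.70 on knockdown arrays 1 to 4 and Epha7 read −4.06, −4.33 and −4.37 on control arrays 2, 3 and 4 and −2.89, −3.20, −3.11 and −2.90 on knockdown arrays 1 to 4. Neither pair of groups overlapped, at changes of 1.31 (SE 0.14, adjusted p = 1.4e-05) and 1.23 (SE 0.21, adjusted p = 0.000484). The ligand Efna5 rose (0.88, adjusted p = 4.23e-07), while Efnb3 (−0.53, adjusted p = 0.00131), Epha4 (−0.52, adjusted p = 0.002) and Ephb6 (−0.43, adjusted p = 0.000263) fell. Other guidance genes were close to the background, with 8 of 35 higher and 7 lower. Slit2, a secreted repellent of axons, read −3.19, −2.98 and −3.05 on control arrays 2, 3 and 4 and −1.77, −1.37, −1.58 and −1.68 on knockdown arrays 1 to 4. Knockdown arrays lay above all controls (log2 change 1.47, SE 0.11, adjusted p = 9.75e-07). Its receptor gene Robo2 was above background on 1 ES array alone, a knockdown array. Sema3e, a ligand of plexin D1, rose (1.04, adjusted p = 5.85e-06). In the opposite direction Plxna1, a semaphorin receptor, read −2.55, −1.51 and −1.55 on control arrays 2, 3 and 4 and −3.78, −3.13, −3.51 and −4.03 on knockdown arrays 1 to 4 and fell by over 3-fold (log2 change −1.74, SE 0.39, adjusted p = 0.00304). Sema7a (−0.91, adjusted p = 6.22e-06) and the neuropilin Nrp2 (−0.81, adjusted p = 4.74e-07) also fell.

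In the TGF-beta superfamily 4 of 27 genes were higher and 7 lower (25.9%). Gdf9, a ligand of oocytes, read −3.85, −3.77 and −3.70 on control arrays 2, 3 and 4 and −5.11, −4.74, −5.19 and −4.95 on knockdown arrays 1 to 4. It fell (log2 change −1.23, SE 0.11, adjusted p = 4.67e-06), as did the receptor Tgfbr2 (−0.85, adjusted p = 0.000218). Fstl1, a secreted follistatin-like protein, rose (0.97, adjusted p = 4.42e-08), and so did the inhibitory Smad6 (0.43, adjusted p = 1.88e-05). Lefty1 (−0.22, adjusted p = 0.286) and Id1 (−0.08, adjusted p = 0.837), targets of Nodal and of BMP, did not pass. Tgfb2 was well above background on 2 control arrays and no knockdown array. The rises include Gdf6, which was above background on no ES array, and with the ES arrays fitted alone 11 genes were lower.

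Wnt targets split into 5 rises and 4 falls of 18. Sp5, a zinc finger factor induced directly by Wnt, read −4.33, −4.15 and −4.27 on control arrays 2, 3 and 4 and −2.77, −2.90, −2.96 and −2.71 on knockdown arrays 1 to 4. The groups did not overlap (log2 change 1.42, SE 0.23, adjusted p = 0.000403). Rnf43, which removes Wnt receptors (0.78, adjusted p = 7.23e-06), and Lef1, a nuclear partner of beta-catenin (0.68, adjusted p = 0.0075), also rose. Tnfrsf19 (−0.80, adjusted p = 7.28e-07) and Myc (−0.66, adjusted p = 1.93e-05) fell, and Axin2, the usual readout of the pathway, did not pass (−0.19, adjusted p = 0.853). Of 19 Hippo-Yap targets 7 were lower (36.8%) and 0 higher by limma, and at an unadjusted p under 0.05 the counts were 8 and 0. Nt5e, the surface enzyme that makes adenosine, read −3.68, −3.59 and −3.65 on control arrays 2, 3 and 4 and −6.49, −6.51, −6.54 and −6.52 on knockdown arrays 1 to 4. It was above background on every control array and on 1 knockdown array, and it fell (log2 change −2.88, SE 0.16, adjusted p = 6.72e-08). The secreted matricellular genes Ccn2 (−0.75, adjusted p = 0.000212) and Ccn1 (−0.29, adjusted p = 0.00594) fell as well. With the median for scaling 4 targets were lower, and with the ES arrays fitted alone 3 were higher.

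Of 19 regulators of G protein signalling 3 were higher, led by Rgs17, which read −2.49, −2.53 and −2.35 on control arrays 2, 3 and 4 and −0.96, −1.13, −0.94 and −0.94 on knockdown arrays 1 to 4 (log2 change 1.47, SE 0.08, adjusted p = 7.11e-08). Rgs2 rose too (0.69, adjusted p = 0.000148). The single fall in that list was lost with either block and without any single array other than knockdown array 2. One of the rises, Rgs4, was above background on no ES array. In the insulin-like growth factor axis 6 of 19 were higher, among them the adaptor Irs1 (log2 change 1.01, SE 0.18, adjusted p = 0.000564) and the binding protein Igfbp6 (0.56, adjusted p = 0.00777), and the protease Htra1 fell (−0.46, adjusted p = 0.0019). The other of the 2 falls was that of Igf2, above background on no ES array, and the falls numbered 1 under several alternatives, among them the median for scaling and the ES arrays alone. Of 30 cytokine receptor and STAT genes 3 were higher and 6 lower. Lifr, the receptor for the leukaemia inhibitory factor that sustains mouse ES cells in culture, read 1.46, 1.60 and 1.59 on control arrays 2, 3 and 4 and 0.59, 0.81, 0.78 and 0.57 on knockdown arrays 1 to 4. It fell (log2 change −0.86, SE 0.13, adjusted p = 0.000244). Its feedback inhibitor Socs3 fell (−0.39, adjusted p = 0.000915), as did Il6ra (−0.58, adjusted p = 0.000853), while the shared subunit Il6st (0.09, adjusted p = 0.358) and Stat3 (0.17, adjusted p = 0.316) did not pass. Without control array 3 or with the median for scaling the falls numbered 3, and the rises moved between 1 and 5 as single arrays were left out.

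Adhesion genes came next. Of 20 classical cadherins and catenins 5 were higher and 1 lower. Cdh2, the cadherin of neural and mesodermal cells, read −3.37, −3.56 and −3.36 on control arrays 2, 3 and 4 and −2.24, −2.41, −2.45 and −2.22 on knockdown arrays 1 to 4. The groups did not overlap (log2 change 1.10, SE 0.11, adjusted p = 8.24e-06). Cdh13, a cadherin without a cytoplasmic tail, rose (log2 change 1.03, SE 0.13, adjusted p = 5.45e-05) and Cdh10 rose (0.63, adjusted p = 0.00416), while Cdh4, the retinal cadherin, lay between −1.45 and −1.37 on the 3 control arrays and between −3.10 and −2.84 on the 4 knockdown arrays and fell (log2 change −1.59, SE 0.16, adjusted p = 9.65e-06). The epithelial cadherin Cdh1 did not pass (0.01, adjusted p = 0.986). Without knockdown array 3 the falls numbered 2, and with the ES arrays fitted alone the rises numbered 10.

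Among 17 non-clustered protocadherins 5 were higher and 1 lower. Pcdh10 was above background on no control array and on 2 knockdown arrays and was at least 1.69-fold higher (adjusted p = 0.000236). Pcdh18 was above background on all 4 knockdown arrays and no control, at least 2.05-fold higher (adjusted p = 0.000964). Dchs1 rose (0.71, adjusted p = 0.00642) and its large relative Fat1 fell (−0.63, adjusted p = 6.82e-05). On the authors' values 1 protocadherin was called higher, and with the slide as a block 2 were lower. Of 20 integrins 5 rose and 2 fell: the beta 1 chain Itgb1 (0.42, adjusted p = 0.00141) and the alpha 4 chain Itga4 (0.75, adjusted p = 0.000257) rose, and Itgb5 read 2.22, 2.05 and 2.05 on control arrays 2, 3 and 4 and 1.19, 1.16, 1.05 and 1.15 on knockdown arrays 1 to 4 and fell (log2 change −0.97, SE 0.07, adjusted p = 3.47e-07). With the mean over probes 3 integrins were higher.

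Junction genes had 5 rises and 8 falls of 29. The claudins Cldn5 (log2 change 1.05, SE 0.15, adjusted p = 0.000117) and Cldn7 (0.78, adjusted p = 0.00137), the connexin Gjb2 (0.85, adjusted p = 0.00332) and occludin, Ocln (0.53, adjusted p = 0.00586), rose. Cldn12 fell (−0.51, adjusted p = 5.03e-05). The falls numbered 5 without knockdown array 1, 2 or 3, 4 without control array 2 or 3 or with the median for scaling, and 3 without control array 4. Of 30 immunoglobulin adhesion molecules 6 rose and 5 fell. Besides Alcam, Nrcam, a neuronal cell adhesion molecule, read −1.54, −1.64 and −1.69 on control arrays 2, 3 and 4 and −0.15, −0.17, −0.29 and −0.17 on knockdown arrays 1 to 4. It rose (log2 change 1.43, SE 0.14, adjusted p = 8.48e-06). Icam2, a ligand of leukocyte integrins, was above background on all controls and 1 knockdown array and fell (log2 change −1.67, SE 0.23, adjusted p = 0.000107, or at least 2.08-fold with dim arrays set at the detection limit), and Nectin1 fell (−0.59, adjusted p = 0.0003). Dscam was above background on all 3 control arrays and no knockdown array, at least 2.10-fold lower (adjusted p = 2.3e-05). The rises numbered 3 without control array 2 and 2 without control array 4.

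The extracellular matrix had 13 of 41 genes higher (31.7%) and 8 lower (19.5%). Vcan, the large proteoglycan versican, read −3.82, −3.72 and −3.86 on control arrays 2, 3 and 4 and −2.67, −2.69, −2.61 and −2.74 on knockdown arrays 1 to 4. All knockdown arrays lay above all controls (log2 change 1.12, SE 0.10, adjusted p = 2.21e-06). Fbn1, the microfibril protein fibrillin 1, rose (log2 change 0.98, SE 0.10, adjusted p = 6.43e-06), and its relative Fbn2 rose by 0.68. Fibronectin, Fn1, rose by 0.35. Among the falls were genes of the basement membrane: Col4a1 (log2 change −0.79, SE 0.06, adjusted p = 1.23e-06), Col4a2 (−0.38), the laminin chain Lama1 (−0.61) and Sparc (−0.55), while Col5a3 of fibrillar collagen fell most (log2 change −1.16, SE 0.17, adjusted p = 0.000168). The collagen IV chains, Lama1 and Sparc also stand on the list of endoderm markers described below. On the authors' values 8 matrix genes were higher. Tnc, counted among the rises, was above background on no ES array. Of 29 proteases and inhibitors 9 rose and 6 fell. Adamts1, which cleaves versican, read −4.76, −4.76 and −4.73 on control arrays 2, 3 and 4 and −3.62, −3.71, −3.59 and −3.50 on knockdown arrays 1 to 4. Adamts1 rose without overlap (log2 change 1.15, SE 0.14, adjusted p = 4.39e-05), as did Mmp11 (0.84, adjusted p = 2.44e-06) and the membrane collagenase Mmp14 (0.70, adjusted p = 6.12e-06), and Adam23 (−0.94, adjusted p = 0.000692) and Adam8 (−0.81, adjusted p = 2.75e-07) fell.

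Imprinted genes are expressed from one parental copy and lie in clusters under shared control elements. Of 29 paternally expressed genes 11 were higher (37.9%) and 8 lower (27.6%), and of 32 maternally expressed genes 12 were higher (37.5%) and 5 lower (15.6%). Those shares exceed the background in both directions for the first list and in the upward direction for the second. The counts include a fall of Igf2 in the first list and of Zim1 in the second, neither of them above background on any ES array. The arrays cannot tell which parental copy gave the signal.

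The Dlk1-Dio3 cluster on chromosome 12 rose as far as it was measured, the paternal and the maternal transcripts alike. Dlk1, a Notch-like transmembrane protein, read −1.35, −1.54 and −1.46 on control arrays 2, 3 and 4 and −0.25, −0.38, −0.39 and −0.31 on knockdown arrays 1 to 4. Meg3, the maternal long non-coding RNA of the cluster, read 2.08, 2.00 and 1.95 on control arrays 2, 3 and 4 and 3.19, 2.79, 3.29 and 3.14 on knockdown arrays 1 to 4. Neither pair of groups overlapped (log2 change 1.12, SE 0.10, adjusted p = 3.71e-06 for Dlk1 and log2 change 1.09, SE 0.15, adjusted p = 8.45e-05 for Meg3). Mirg, another maternal non-coding RNA, rose (log2 change 1.20, SE 0.10, adjusted p = 2.61e-06), and Dio3 rose as given above. Rtl1 was not well above background on any ES array. The Prader-Willi cluster on chromosome 7 behaved likewise. Magel2 read −3.59, −3.33 and −3.22 on control arrays 2, 3 and 4 and −2.16, −2.21, −2.14 and −2.14 on knockdown arrays 1 to 4. It rose (log2 change 1.22, SE 0.10, adjusted p = 1.23e-06), and so did Mkrn3 (log2 change 0.96, SE 0.18, adjusted p = 0.000864), Snrpn (log2 change 0.65, SE 0.07, adjusted p = 2.03e-05) and Ndn (log2 change 0.50, SE 0.12, adjusted p = 0.0047). Atp10a, in the same region, rose (log2 change 1.37, SE 0.23, adjusted p = 0.000522). Peg12 (0.00, adjusted p = 0.995) and Ube3a (0.08, adjusted p = 0.557) did not pass.

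The Kcnq1 cluster also moved upward in part. Cdkn1c, the p57 inhibitor of cyclin-dependent kinases, read 1.51, 1.49 and 1.52 on control arrays 2, 3 and 4 and 2.41, 2.29, 2.33 and 2.44 on knockdown arrays 1 to 4. It rose (log2 change 0.86, SE 0.14, adjusted p = 0.000429), as did Phlda2 (log2 change 1.02, SE 0.24, adjusted p = 0.00454) and Kcnq1 (log2 change 0.94, SE 0.13, adjusted p = 7.64e-05), while Ascl2 (0.08, adjusted p = 0.56), Cd81 (−0.09, adjusted p = 0.156) and Tssc4 (−0.31, adjusted p = 0.11) did not pass. With the slide as a block Tssc4 was lower (−0.36, adjusted p = 0.00103). The RNA that silences this cluster, Kcnq1ot1, did not pass either (0.39, adjusted p = 0.131). H19, the maternal non-coding RNA of the neighbouring domain, read −0.31, −0.40 and −0.49 on control arrays 2, 3 and 4 and −1.39, −1.55, −1.62 and −1.51 on knockdown arrays 1 to 4. It fell (log2 change −1.12, SE 0.13, adjusted p = 3.48e-05), and its paternal partner Igf2 was not well above background on any ES array. Grb10, an adaptor that damps insulin signalling, rose (log2 change 0.95, SE 0.06, adjusted p = 1.27e-07), and Ddc, next to it, fell (log2 change −0.79, SE 0.13, adjusted p = 0.000321).

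The falls lay at other loci. Plagl1, a zinc finger factor, read −1.13, −1.05 and −1.28 on control arrays 2, 3 and 4 and −3.05, −2.69, −3.04 and −3.09 on knockdown arrays 1 to 4. It fell (log2 change −1.82, SE 0.23, adjusted p = 5.6e-05). Of its 4 probes 2 were called lower and 0 higher, with changes from −1.82 to 0.09. Nnat, a small membrane proteolipid, read −3.74, −3.77 and −3.73 on control arrays 2, 3 and 4 and −5.14, −5.43, −5.13 and −5.22 on knockdown arrays 1 to 4. It fell (log2 change −1.49, SE 0.22, adjusted p = 0.000168). Peg10, a gene derived from a retrotransposon, fell (log2 change −1.07, SE 0.10, adjusted p = 4.87e-06), and on the same cluster of chromosome 6 Asb4 fell (log2 change −1.69, SE 0.20, adjusted p = 3.57e-05, above background on 1 knockdown array, or at least 2.54-fold with dim arrays set at the detection limit, while its second probe read −0.20), Pon2 fell (−0.46, adjusted p = 0.00465) and Sgce did not pass (−0.08, adjusted p = 0.455). Peg13 fell (log2 change −1.52, SE 0.26, adjusted p = 0.000541) while Trappc9, the gene in which it lies, rose (log2 change 0.71, SE 0.10, adjusted p = 0.000145). In the Peg3 domain Zfp264 fell (log2 change −1.02, SE 0.25, adjusted p = 0.00563), whereas Peg3 itself was higher (0.32, adjusted p = 0.0261), a call kept in 4 of the 7 fits that left out 1 array. Rasgrf1, a Ras activator on chromosome 9, rose (log2 change 1.34, SE 0.22, adjusted p = 0.000418), and Sfmbt2, a Polycomb-related gene, rose (log2 change 0.73, SE 0.07, adjusted p = 8.33e-06). Without control array 2 the paternal list had 5 falls, and with the median for scaling it had 5 as well.

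**Figure D4:**
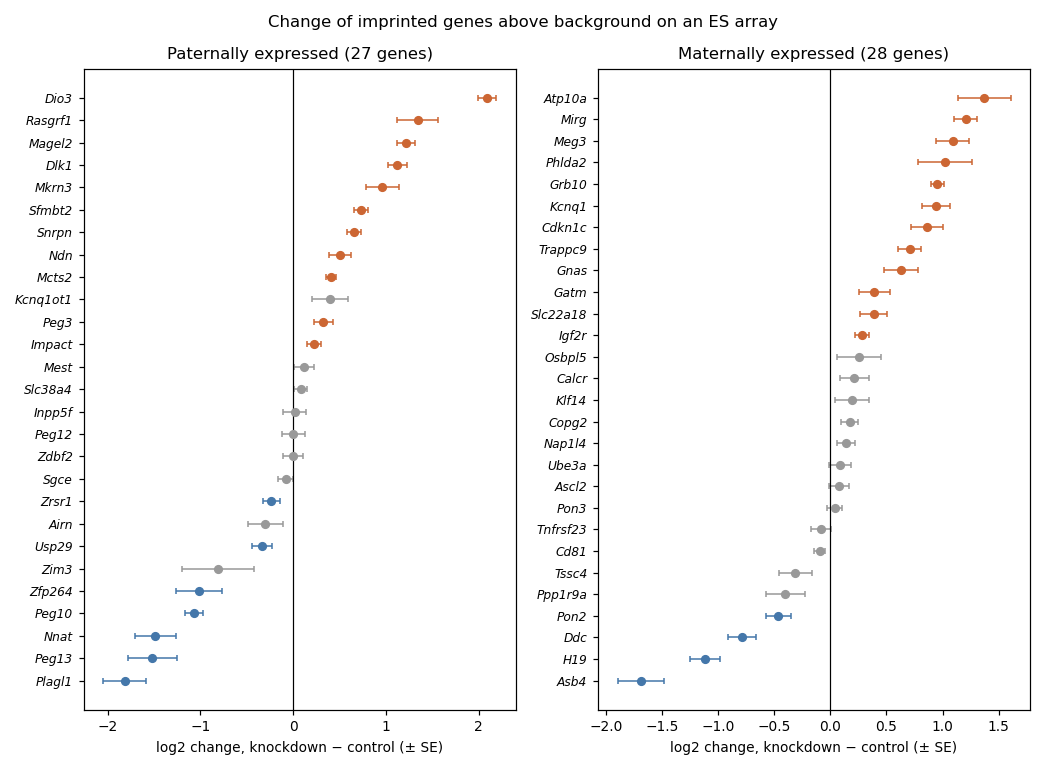
Change of each imprinted gene that was well above background on at least 1 ES array, with the SE as bars, for 27 paternally and 28 maternally expressed genes. Orange points were called higher, blue lower and grey not called. Genes of the Dlk1-Dio3 cluster (Dio3, Dlk1, Meg3, Mirg) all lie between 1 and 2.1.

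Genes of differentiated function were looked at for early expression. Of 34 synapse and vesicle genes 8 were higher (23.5%, near the 22% of all genes) and 3 lower, or 1 lower with the median for scaling. Dlg4, the postsynaptic scaffold PSD-95, read −3.96, −4.14 and −3.89 on control arrays 2, 3 and 4 and −3.01, −2.59, −2.56 and −2.66 on knockdown arrays 1 to 4. It rose (log2 change 1.29, SE 0.13, adjusted p = 9.72e-06), and so did Homer2, another postsynaptic scaffold (log2 change 1.05, SE 0.17, adjusted p = 0.000337). In control EB9 Dlg4 stood at −0.41 ± 0.21 and Homer2 at −1.72 ± 0.27 (SD, n = 4). Synaptophysin, Syp, did not pass (0.15, adjusted p = 0.79). Of 35 channel and receptor genes 7 were higher and 7 lower. Kcna1, a potassium channel, was above background on 1 control and 4 knockdown arrays and rose (log2 change 1.44, SE 0.26, adjusted p = 0.000719), while Kcnn2 (−0.62, adjusted p = 0.00016) and Kcnk1 (−0.60, adjusted p = 0.00476) fell.

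Genes of the germ line list were more often higher: 13 of 36 (36.1%) against 4 lower (11.1%), with a median of 0.23. The list does not hold Magea4, Pramel14, Pramel30 or the Xlr genes, whose larger falls are given above. Among the rises were genes of meiosis. Rec8, the meiotic cohesin, read 1.51, 1.43 and 1.30 on control arrays 2, 3 and 4 and 2.86, 2.66, 2.57 and 2.75 on knockdown arrays 1 to 4. The groups did not overlap (log2 change 1.29, SE 0.10, adjusted p = 1.37e-06). Dmc1, the meiotic recombinase, read −1.03, −1.43 and −1.28 on control arrays 2, 3 and 4 and 0.16, −0.18, −0.13 and 0.12 on knockdown arrays 1 to 4. Again no knockdown array fell among the controls (log2 change 1.24, SE 0.13, adjusted p = 1.32e-05). Sycp3, of the chromosome axis, rose (log2 change 1.07, SE 0.19, adjusted p = 0.000565), as did the synaptonemal genes Syce1 (0.57) and Syce2 (0.66), the X-linked Tex11 (0.95) and the helicase Ddx4 (0.48). Stra8, the gene that opens the meiotic programme, did not pass (−0.03, adjusted p = 0.913), and neither did Dazl (−0.15, adjusted p = 0.346). Asz1, a protein of the piRNA pathway, fell (log2 change −1.52, SE 0.18, adjusted p = 2.66e-05), and Fkbp6 (−0.80, adjusted p = 0.0001) and Tex19.1 (−0.73, adjusted p = 0.000646) fell. In control EB9 the level of Rec8 was 0.44 ± 0.13, that of Dmc1 −2.63 ± 0.16 and that of Sycp3 −0.08 ± 0.34 (SD, n = 4), below the means of the ES controls in each case. With the ES arrays fitted alone 7 germ line genes were lower.

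Of 29 genes of protein folding stress 13 were higher (44.8%) and 2 lower. The rises were chaperones and disulfide isomerases of the endoplasmic reticulum: Hyou1 read −2.73, −2.52 and −2.58 on control arrays 2, 3 and 4 and −2.08, −1.67, −1.66 and −1.86 on knockdown arrays 1 to 4 (log2 change 0.79, SE 0.11, adjusted p = 7.59e-05), and Calr (0.77), Pdia4 (0.71), Hsp90b1 (0.65), Pdia6 (0.48), Hspa5 (0.44) and Canx (0.40) rose with it. Xbp1 did not pass (−0.16, adjusted p = 0.0569). The falls were cytosolic, Dnajb1 (−0.67, adjusted p = 5.15e-06) and Hspb1 (−0.46, adjusted p = 0.00312). With the slide as a block 4 genes were lower, where 20.1% of all genes tested were. Of 34 cytoskeletal genes 12 were higher (35.3%) and 4 lower. Acta2, smooth muscle actin (log2 change 0.93, SE 0.17, adjusted p = 0.000747), and the smooth muscle genes Tpm2 (0.80, adjusted p = 0.000557) and Cnn1 (0.69, adjusted p = 0.00787) rose, and Myl9, a myosin light chain of the same cells, fell (log2 change −0.83, SE 0.09, adjusted p = 1.1e-05). The intermediate filament Nes rose by 0.64. Without control array 2 the falls numbered 2, and with the median for scaling 1. Cytosolic ribosomal proteins had 15 of 65 called higher, near the background, and that number ran from 7 without control array 3 and 8 without control array 2 to 24 without knockdown array 3, with 9 without knockdown array 4 and 25 with the slide as a block. Scaling moved it further: 3 were higher with the median or on the authors' values, 2 with quantiles and 43 with array weights. Probes of Rpl19 disagreed in direction.

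Position along the chromosomes was examined after the values had been seen. Genes above background on all ES arrays were taken in windows of 10 Mb by the mm9 position of their probe, and windows with at least 20 such genes were kept, 242 in all. A segment of chromosome 14, positions 40000001 to 70000000, held the windows ranked 1, 3 and 4 by median change. Of its 314 genes 142 were higher (45.2%) and 17 lower (5.41%), with a median of 0.27, and within slides 1, 2 and 3 the median was 0.34, 0.27 and 0.31. The rest of that chromosome had a median of 0.06 and 22.6% of 403 genes higher. On the authors' values the medians were 0.19 in the segment and 0.01 in the rest. The segment median moved by over the SD between arrays in 12 alternatives and by less in 8. Its bounds were drawn from the ranked windows, so the gap from the rest was partly set by that choice. In EB9 the knockdown minus control median of the segment was −0.02, with 25 genes higher and 28 lower, where 7.95% of all genes tested were higher and 7.2% lower in EB9. Gch1, the first enzyme of tetrahydrobiopterin synthesis, rose by 1.30 within it, Ift88, an intraflagellar transport protein, by 1.22 and Micu2, a regulator of mitochondrial calcium uptake, by 1.11.

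**Figure D5:**
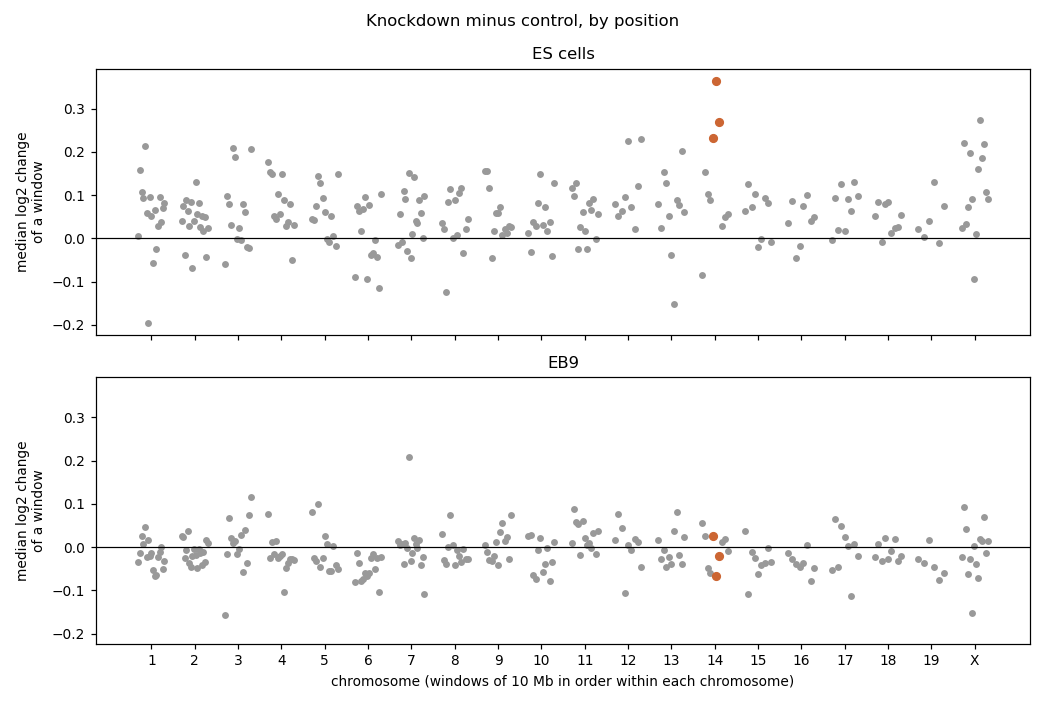
Median change of the genes in each 10 Mb window, knockdown minus control, by chromosome, in ES cells (top) and EB9 (bottom). Orange points are the 3 windows of the chromosome 14 segment. They lie at 0.23 to 0.36 in ES cells and between −0.07 and 0.03 in EB9.

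The sex chromosomes held more of the large falls. On the X chromosome 9.05% of 707 genes were at least 2-fold lower and 3.68% at least 2-fold higher, against 3.15% and 1.76% of all genes tested, and the Xlr family lies there. Over all genes called, 30.4% of X-linked genes were higher and 19.7% lower. On the Y chromosome 6 of 10 genes were at least 2-fold lower, among them the zinc finger genes Zfy1 and Zfy2 and the spermatid gene Sly, families whose copies a probe may not separate. Eif2s3y, a translation factor gene expressed widely from the Y, did not pass (0.07, adjusted p = 0.557).

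Markers of cells that an ES culture can hold were counted beside these results. Signal from fewer cells of a type and from less RNA per cell cannot be told apart in such bulk samples. Feeder and mesenchyme markers had 2 higher and 2 lower of 14, and their summed level, as a multiple of the 75th percentile of the array, was 5.09 to 5.39 in controls and 5.15 to 5.4 in the knockdown. Postn, Dcn, Lum, Lox, Col3a1 and Prrx1 were not well above background on any ES array. Endoderm markers had 8 of 15 lower (53.3%), Afp among them, and 1 higher, and their summed level was 62.5 to 67.2 in controls and 43.7 to 49.5 in the knockdown. Most of that sum came from Sparc (5.03 in controls, 4.48 in the knockdown), Lama1 (4.32 and 3.72) and Lamb1 (3.09 and 3.26). Gata4, Gata6, Foxa2, Sox17 and Dab2 lay at −1.73 or lower in both groups and added little. With the slide as a block 2 endoderm markers were higher. The largest measured fall among them was that of Srgn (−1.14, adjusted p = 0.0123), a proteoglycan of parietal endoderm, and Foxa2 fell (−0.69, adjusted p = 0.00988), while Gata4 rose (0.79, adjusted p = 1.3e-07) and Gata6 (−0.19, adjusted p = 0.39) and Sox17 (0.18, adjusted p = 0.29) did not pass. Sox17 passed with the slide as a block (0.21, adjusted p = 0.0415), but without a block its other probe was called lower (−0.59), so its direction is not settled. Afp, Apoa1, Ttr and Thbd were not well above background on any ES array. The part of endoderm cells in the falls of Pdgfra, Col4a1, Col4a2, Lama1 and Sparc was not tested. Trophoblast markers had 4 higher and 2 lower of 11: Cdx2 rose (log2 change 1.03, SE 0.21, adjusted p = 0.00205) and Eomes fell (log2 change −1.13, SE 0.12, adjusted p = 9.67e-06). Their summed level was 19.5 to 22.4 in controls and 16.9 to 22.6 in the knockdown, and without control array 2 the rises numbered 2. The largest part of that sum came from Gcm1, at 3.44 in controls and 3.11 in the knockdown. Its probe lies at chr7:68290936-68290995 of mm9, and its 3 probes ranged from −0.40 to 0.57 with 0 called. Whether that probe reads Gcm1 was not tested, so the sum may not describe trophoblast cells. ES cell markers summed to 468 to 481 in controls and 426 to 497 in the knockdown. Nr0b1, an orphan receptor of ES cells, rose (log2 change 0.88, SE 0.16, adjusted p = 0.000917). Klf4 (log2 change −0.57, SE 0.10, adjusted p = 0.000487) and Utf1 (−0.49, adjusted p = 0.000472) fell, and Nanog did not pass (−0.27, adjusted p = 0.111).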

How the data were processed

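RNA of 15 samples was hybridised to 1-colour Agilent arrays, 1 sample to each. The authors deposited the scanner output, in which each spot has an intensity that Agilent Feature Extraction 10.7.3.1 corrected for background, per the file headers. They also deposited a table of log2 values, whose columns share 1 distribution (quantile normalized, from the values), and no header or label names their background step.

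For this text, the log2 of the processed intensity minus the 75th percentile of each array over non-control spots was used. Spots marked as outliers were set missing, control spots were left out, and spots of a probe were averaged. Probes well above background on at least 3 arrays of a group were kept (27250 of 39429), and the brightest stood for its gene. Of the probes, 26532 took their gene name by accession, 3912 by symbol and 807 by synonym from RefSeq, and 8178 kept the name in the file. The limma 3.58.1 model (lmFit and eBayes, R 4.3.3, two-sided) held a mean for each of the 4 groups over all 15 arrays, with 11 residual degrees of freedom and no block, and Benjamini-Hochberg adjustment over 21178 genes, of which 79 had a missing value on some array. A gene was called at an adjusted p under 0.05. The steps were tested on simulated data. The number of arrays limits the precision.

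A probe dark in a whole group has a bound in place of a fold. The bound takes the mean of the bright group against, per array, the higher of the lowest signal well above background and the signal of the probe.

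The genes and lists were chosen with earlier results of these data known, and the lists give counts and no test. Genes were named by rule: the 12 highest and lowest changes of at least 2-fold among genes above background on every ES array with groups that do not overlap, the 5 highest bounds in each direction, up to 3 rises and 3 falls of a list, and Cbx7. Clone and predicted names were passed over, and some list genes that lost their call when 1 array was left out are given in counts alone. Some members of the lists enter the counts and are not reported here by name. The 10 Mb windows and the motifs were chosen after seeing the data.

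The numbers in the titles were checked for pairing. Deviations from group means correlated at −0.59, 0.36 and −0.37 between ES arrays of the same number, so the numbers do not pair the samples, and at 0.63, 0.48 and 0.46 between arrays of the same slide. Some pairs of different slides also deviated together, up to 0.49. Alternatives were the number or the slide as a block, the ES arrays alone, other background, scaling, filter, flag and probe rules, array weights, the authors' values, and each ES array left out.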

Additional observations from a re-analysis of the deposited data

Results flagged for a closer look

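In 10 of 303 groups of 4 knockdown arrays, 1 array lay far from the other 3, where chance gives about 5% of such groups. Spry2, a feedback inhibitor of growth factor signalling, stood furthest apart: its highest array was knockdown array 2, at −1.68. Array 2 was also the highest for Plagl1 (−2.69) and the lowest for Kcnn2 (−1.64), Pcdh10 (−6.50) and Rgs17 (−1.13). Array 3 was the highest for Sema7a (−0.073) and the lowest for Nrcam (−0.29) and Srgn (−2.59). Array 1 was the highest for Olig2 (−4.46), and array 4 the lowest for Gata4 (−2.82).

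The effect of the knockdown differed between ES cells and EB9 for 31 of the 35 genes examined, by the interaction term in limma, where 29.7% of all genes tested did. The contrast was coded as the log2 change in EB9 minus that in ES cells. For genes that rose in ES cells it was negative. Its value was Ccnd2 −3.11, Dio3 −2.06, Mbd5 −1.56, Isl2 −0.79, Tcp10a −1.92 and Col8a2 −0.94 for the first of them. It was Tnrc6c −1.52, Dach1 −1.73, Plpp7 −1.50, Sox3 −2.52 and Insm1 −1.95 for further genes above background on every ES array. For genes seen in the knockdown ES cells alone it was Smim27 −3.005, Alcam −1.69, Fam90a1b −2.84, Mblac2 −1.30 and Olig2 −1.72. For genes that fell in ES cells it was positive. Among the Xlr family and DXBay18 it was Xlr5b 2.78, Xlr5c 2.50, Xlr5a 3.27, Xlr3b 1.31 and DXBay18 4.10. It was Pramel14 1.83, Pramel30 2.85, Efhc2 2.84, Slamf9 3.08 and Olfr1466 4.31 for the other large falls. For genes seen in the control ES cells alone it was Magea4 2.91, Mbl2 2.81, Dnajc5g 3.72, Reg1 3.19 and Ptpn22 3.45. The genes chosen for large changes in ES cells were bound to lean this way, so the signs are a description. The difference did not pass for Frg2f8, Xlr4a, Xlr4b and Cbx7.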

How the results depend on the processing

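The counts of called genes held within 1.5 times under all alternatives run but 1: with the median for scaling 2325 genes were lower. With normexp and quantile normalization, and likewise on the authors' values, 85 genes were at least 2-fold higher and 254 lower. Array weights gave 420 list members higher (276 of 994 otherwise). Of 233 called genes named with a value, 222 kept their call on the authors' values, 223 with the median for scaling and 229 without control array 2. None was called in the opposite direction under any alternative. Those genes were mostly named for large changes, and some that lost their call without 1 array went unnamed. Their calls were thus bound to hold more often. Over all genes, 3322 of 4651 rises and 2945 of 3492 falls kept their call on the authors' values. With the median for scaling 3252 and 2270 did, and without control array 2 3995 and 2814 did. The median change of a list turned sign for at most 5 of 39 lists. Of 78 counts, higher and lower in each list, 29 moved by over 1.5 times with array weights, 17 with the median for scaling, 17 on the ES arrays of slides 1 to 3 with the slide block, 14 on the authors' values, 10 with the ES arrays alone, 8 with quantile scaling, 8 with the slide block and between 3 and 13 when 1 array was left out.

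With the replicate block, the number in the titles, 4879 genes were higher and 3620 lower; 4455 and 3323 of these were shared with the counts above. With the slide as a block the counts were 5786 and 4267, 4580 and 3433 of them shared. The Cbx7 probe A_55_P1980401 passed the threshold with the slide as a block (−1.41), also on the ES arrays of slides 1 to 3 alone (−1.47), and with array weights (−3.10). Leaving out each ES array gave 3626 to 4461 genes higher, 2848 to 3191 lower, 348 to 370 and 597 to 671 at least 2-fold, 219 to 271 list members higher and 137 to 152 lower, −2.98 to −1.31 for this probe and −0.38 to 0.0037 for the other Cbx7 probe.

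Over all called genes in place of those changed at least 2-fold, the share of promoters with at least 15 CG was 75.7% for rises and 64.4% for falls. The same choice put 35.1% of chromosome 14 genes and 30.4% of X genes higher and 10.1% and 19.7% lower. With at least 3 arrays as the detection rule, 79 genes were seen in the knockdown alone.

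Signs turned for genes that did not pass the test, and the cause was not tested. On the authors' values, and likewise with normexp and quantile normalization, the change was −0.023 for Ascl2, −0.084 for Cdh1 and −0.03 for Phgdh. With quantile scaling it was −0.0995 for Cdh1 and −0.067 for Phgdh, and with the median 0.025 for Nfe2l2 and 0.0027 for Stra8. With array weights it was −0.033 for Cdh1, 0.0015 for Nfe2l2, −0.16 for Peg12 and −0.23 for Syp. With the mean over probes it was 0.0095 for Nanog and −0.20 for Sox17, and with the replicate block 0.16 for Axin2 and 0.049 for Id1. Leaving out single arrays gave −0.62 to 0.14 for Axin2, −0.0204 to 0.0298 for Cdh1, −0.26 to 0.0255 for Id1, −0.017 to 0.0008 for Nfe2l2, −0.18 to 0.12 for Peg12, −0.049 to 0.0068 for Stra8 and −0.24 to 0.37 for Syp.

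Levels under about −6.5 lie near the limit of detection, where changes are bounds.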
